A study of Mus musculus with 20 samples.

Results

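A set of 9 transporter genes of the mouse liver was examined: Slco1a1, Slco1a4, Slco1b2, Slco2b1, Slc22a7, Abcc2, Abcc3, Abcg2 and Slc47a1. They were taken from the gene expression table by their symbols, which gave 9 of the 45306 genes listed. Liver RNA of 20 C57BL/6 mice had been sequenced, with 5 mice in each of 4 groups. Control mice were wild type and kept at room temperature, and CE mice were wild type and exposed to cold, at 4 °C for 3 h per day over 3 weeks. Sirt2-/- mice carried a knockout of Sirt2, a NAD-dependent deacetylase, and were not exposed to cold, and Sirt2-/-/CE mice carried the knockout and received the cold exposure. The mice were 5 weeks old when they were divided into the groups, and the knockout was directed at exons 5 to 7 by injection of fertilized eggs, so that every tissue of these mice carries it. The comparisons asked how the level of the transporters differed with loss of Sirt2, with cold, and with both.

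Hepatocytes take up bile acids, bilirubin, steroid and thyroid hormone conjugates and many drugs from the blood, modify them, and pass them into bile or back into blood. Uptake across the sinusoidal membrane is carried by the organic anion transporting polypeptides of the Slco family and by organic anion transporters such as the product of Slc22a7. Export is carried by ATP-driven pumps of the Abc family and by the multidrug and toxin extrusion protein encoded by Slc47a1. In mouse liver Slco1a1 is known as a male-predominant gene and Slco1a4 as a female-predominant one.

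Slco1a1, Slco1a4 and Slco1b2 lie close together on chromosome 6 of the GRCm38 build, and their sequences are shown because Slco1a1 and Slco1a4 are close copies whose ratio differed widely between mice. Slco1a4 covers positions 141805440 to 141856199 and Slco1a1 positions 141907282 to 141946962, both on the reverse strand, and Slco1b2 covers 141629518 to 141686646 on the forward strand. The transcripts of Slco1a1 and Slco1a4 matched each other with 87.4% identity over 910 bases at best. None of the 9 genes had an alignment of at least 150 bases to another gene with 95% identity over its whole length. This was the limit set for reads that could be counted for the wrong gene. Stretches of 150 bases inside longer alignments were not scanned, so closer matches within them were not tested. The first 60 coding bases of both genes, read from GRCm38 at chr6:141946579-141946638 for Slco1a1 and chr6:141845409-141845468 for Slco1a4 on the reverse strand, differ at 13 bases, which are in capitals. Each coding sequence has 2010 bases before the stop codon.
Slco1a1: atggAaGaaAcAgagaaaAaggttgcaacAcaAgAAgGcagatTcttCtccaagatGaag
Slco1a4: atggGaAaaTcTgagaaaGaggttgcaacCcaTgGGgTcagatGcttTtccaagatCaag

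The promoter windows of these 3 genes, from 250 bases before to 50 after the start of transcription, were taken from RefSeq on GRCm38.p6, which held a window for 6 of the 9 genes. They are given for the neighbours on chromosome 6, at chr6:141946913-141947212 (reverse strand), chr6:141856171-141856470 (reverse strand) and chr6:141629268-141629567 (forward strand). Capitals mark matches on either strand to AGGTCA, the core motif of nuclear receptors, or to TTCNNNGAA, the motif of STAT5.
Slco1a1: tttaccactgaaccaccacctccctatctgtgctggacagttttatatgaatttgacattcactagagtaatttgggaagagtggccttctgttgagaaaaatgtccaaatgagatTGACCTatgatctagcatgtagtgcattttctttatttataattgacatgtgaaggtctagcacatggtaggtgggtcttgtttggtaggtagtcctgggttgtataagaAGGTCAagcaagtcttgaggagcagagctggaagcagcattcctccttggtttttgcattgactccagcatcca
Slco1a4: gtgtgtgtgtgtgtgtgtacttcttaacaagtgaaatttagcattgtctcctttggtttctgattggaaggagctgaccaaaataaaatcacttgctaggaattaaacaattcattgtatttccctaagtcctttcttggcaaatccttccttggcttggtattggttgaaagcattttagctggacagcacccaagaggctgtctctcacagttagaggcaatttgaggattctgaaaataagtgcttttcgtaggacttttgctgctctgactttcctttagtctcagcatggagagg
Slco1b2: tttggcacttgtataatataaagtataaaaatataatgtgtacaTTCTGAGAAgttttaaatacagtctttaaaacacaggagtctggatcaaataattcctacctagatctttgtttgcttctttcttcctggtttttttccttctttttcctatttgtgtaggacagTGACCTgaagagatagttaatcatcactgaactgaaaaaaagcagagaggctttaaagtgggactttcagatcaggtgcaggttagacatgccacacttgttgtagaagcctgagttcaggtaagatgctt
The window of Slco1a1 held AGGTCA at 134 and at 24 bases before the start, read once on each strand, and that of Slco1b2 held the motif of nuclear receptors and that of STAT5 once each. No match to these motifs, to TTATGTAA of the D-box, to CACGTG of the E-box or to TGACNNNGC of the antioxidant response element was found in the window of Slco1a4. Among 32851 promoter windows of the same length, AGGTCA was found in 16.3%, TTCNNNGAA in 8.3%, TTATGTAA in 0.938%, CACGTG in 7.15% and TGACNNNGC in 12.4%. A match is a description of the letters and not of binding.

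The libraries held 35499796 to 53917339 counts, and 15616 genes, all 9 transporters among them, passed the filter on low counts. Sirt2 fell to 21.9 ± 5.01 CPM (TMM-scaled counts relative to library size, mean ± SD, n = 5) in Sirt2-/- from 42.3 ± 1.30 in Control, with an adjusted p of 0.0145 by edgeR's quasi-likelihood test, and its groups did not overlap. Without Sirt2-/- 14 and 15, where edgeR called 0 of 16115 genes and 1308 were at an unadjusted p under 0.05, the log2 fold change of Sirt2 was -0.95 beside -0.94 with all mice, with an adjusted p of 0.129. Hepatocyte markers were abundant in all mice, at 86080 to 165700 summed CPM for 8 genes, and the 6 kidney markers stayed at or below 0.489 summed CPM, with Slc12a1 and Aqp2 at 0 in every group. A total of 5 libraries were taken as standing apart from the rest. Control 3 and Sirt2-/-/CE 20 had the lowest mean of 10 male-type liver genes, -2.11 and -3.28 in centred log2 CPM, and the highest of 8 female-type liver genes, 1.96 and 4.48, while the Y-linked Ddx3y, looked at after the values were seen, had at least 1046 counts in each of the 20 mice. Sirt2-/- 14 and 15 had the lowest clock scores, -2.45 and -3.21 (mean log2 CPM of the clock genes Per3, Nr1d2, Ciart, Tef and Dbp, less that of Npas2, Clock and Arntl, the opposing arm), against 3.85 to 5.44 in the other Sirt2-/- mice. Sirt2-/-/CE 19 and CE 9 followed at -1.42 and -1.25, with all remaining libraries at 2.46 to 6.64. They were not counted among the 5. Sirt2-/- 14 and Sirt2-/-/CE 16 had the lowest gene length trends, -0.52 and -0.86 (centred log2 CPM of genes in the upper quartile of length minus that of the lower quartile), against -0.28 to 0.37 in the other 18 libraries. Values without these 5 mice are given beside the results that they bear on most. P-values of edgeR set a fold change against the spread between mice, estimated over all 4 groups. Those of relations come from permuting the 20 mice across groups.

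Per gene length, the 9 transporters spanned a wide range of levels. Slco1b2, the main liver-specific member of the uptake family, was the highest of them in all 20 mice, at 288 ± 69.7 FPKM (mean ± SD over the 20 mice). Slco1a1 followed at 87.3 ± 41.2 FPKM and exceeded Abcc2, the next in the order at 58.2 ± 19.1, in 16 of the 20 mice. The middle of the order was formed by Abcc3 at 41.9 ± 9.57, Slco2b1 at 33.3 ± 6.48, Slc47a1 at 28.0 ± 5.18, Abcg2 at 24.5 ± 5.52 and Slco1a4 at 19.4 ± 10.9 FPKM. Over the 20 mice the ranges of all neighbours in this order overlapped, and within mice the higher gene of a pair of neighbours exceeded the lower in 14 of 20 (Slc47a1 over Abcg2) to 20 of 20 (Slco1b2 over Slco1a1). Slc22a7 was the lowest in every group mean, at 7.96 ± 5.79 FPKM over all mice.

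**Figure D1:**
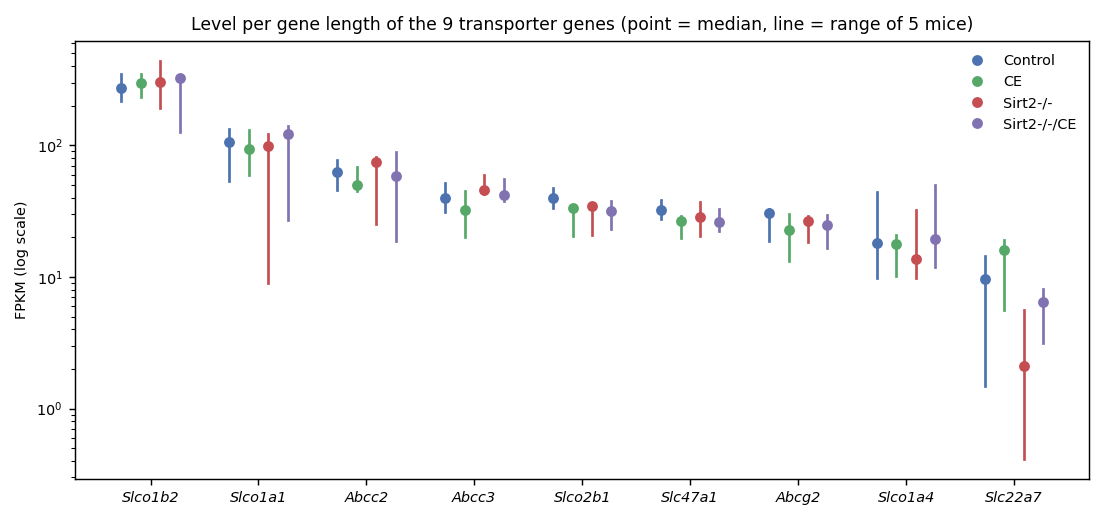
FPKM of each transporter on a log axis, by group, with points at the median and lines over the range of the 5 mice of a group. Slco1b2 was the highest of the 9 in each of the 20 mice, and the range of Slc22a7 lay below that of Slco1a4 in Sirt2-/- and in Sirt2-/-/CE.

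The order was the same in the 4 group means, and what differed was the distance between neighbours. Slco1b2 took 40.5% to 60.8% of the summed FPKM of the 9 genes in a mouse, and Slco1a1 took 2.16% to 20.4%. The share of Slc22a7 ran from 0.0761% to 3.23%. In Sirt2-/- and in Sirt2-/-/CE the range of Slc22a7 lay wholly below that of Slco1a4, its upper neighbour, whereas in Control and CE both ranges overlapped.

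Slc22a7, which encodes an uptake transporter of organic anions, nucleobases and cyclic nucleotides, showed the widest differences between groups. It lies on chromosome 17 from 46432183 to 46438457 on the reverse strand. In Control its level was 16.5, 20.9, 3.38, 24.3 and 31.0 CPM in mice 1 to 5. In CE it was 27.1, 35.6, 13.4, 39.3 and 41.4 CPM in mice 6 to 10. In Sirt2-/- it was 5.99, 10.8, 4.37, 1.65 and 0.765 CPM in mice 11 to 15. Every Sirt2-/- mouse was thus below every Control mouse apart from Control 3, which fell within the Sirt2-/- range. In Sirt2-/-/CE the values were 11.02, 15.7, 16.2, 13.3 and 6.86 CPM in mice 16 to 20, all above the Sirt2-/- mean and below the CE mean.

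The fitted level of Slc22a7 in Sirt2-/- was 4.07-fold lower than in Control, a log2 fold change of -2.02 (SE 0.56, 95% interval -3.22 to -0.83), with an adjusted p of 0.0811 by edgeR, which did not pass the threshold of 0.05. Averaged over both treatments, the knockout groups were 3.18-fold lower (log2 -1.67, SE 0.39), with an unadjusted p of 0.000384 and an adjusted p of 0.0895. DESeq2 gave an adjusted p of 0.00696 for Sirt2-/- against Control, in a comparison where it called 3.86% of 15822 genes, and 0.00166 for the averaged genotype, where it called 1.95% of 16323 genes. limma voom gave 0.0459 for the averaged genotype, with 1.68% of genes called. With the gene length trend as a covariate, edgeR's adjusted p for Sirt2-/- against Control was 0.0456, with 3.57% of genes called. With Control 3 left out, edgeR's adjusted p for the averaged genotype was 0.0378, with 0.209% of genes called, and with Sirt2-/- 14 and 15 left out it was 0.233, at a log2 fold change of -1.39. Without these 2 mice the value for Sirt2-/- against Control was -1.44 (adjusted p = 0.427 by edgeR). The direction was lower in the knockout under every alternative run.

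Within the cold-exposed mice Slc22a7 was 2.49-fold lower in Sirt2-/-/CE than in CE (log2 -1.31, SE 0.55, adjusted p = 0.71 by edgeR). The fitted differences with cold had the opposite sign. Sirt2-/-/CE exceeded Sirt2-/- by 2.67-fold (log2 1.42, SE 0.55, adjusted p = 0.595) and CE exceeded Control by 1.63-fold (log2 0.71, SE 0.54, adjusted p = 0.696), or by 0.43 on the log2 scale without Control 3. Averaged over both genotypes, the log2 difference with cold was 1.06 (SE 0.39, unadjusted p = 0.0124, adjusted p = 0.404). Without Sirt2-/- 14 and 15 the log2 value of Sirt2-/-/CE against Sirt2-/- was 0.82 and that averaged over genotypes 0.77. The test of the interaction gave a log2 value of 0.71 (SE 0.77, adjusted p = 0.868), and a difference in the effect of cold between genotypes was not detectable at this spread.

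Markers of other liver cells had higher values in the knockout, without passing the test. All 7 tested Kupffer cell markers had higher fitted levels in Sirt2-/- than in Control, with summed levels of 255 to 439.5 CPM against 109 to 359, and all 8 endothelial markers did so, at 127 to 381 against 70.8 to 267 CPM. In Sirt2-/-/CE and CE the summed levels were 311 to 458 against 95.3 to 411 CPM for Kupffer cell markers and 216 to 425 against 39.5 to 227 CPM for endothelial markers. Their median log2 fold changes there were 0.80 and 1.25, with 5 of 7 and 8 of 8 at an unadjusted p under 0.05 by edgeR, beside 6.09% of all genes. Without Sirt2-/- 14 and Sirt2-/-/CE 16 the medians were 0.64 and 1.31, with 1 of 7 and 8 of 8 at this limit. Without all 5 libraries that stood apart they were 0.59 and 1.41, with 0 of 7 and 8 of 8. For the averaged genotype the medians were 0.58 and 0.82, with 6 of 7 and 8 of 8 at an unadjusted p under 0.05, beside 13.8% of all genes. None of these 15 genes passed the adjusted threshold in any of these comparisons. Hepatocyte markers were split in Sirt2-/- against Control, with 4 of 8 higher and 4 lower and a median log2 fold change of -0.04. The part of these markers in the level of Slc22a7 was not tested, and in bulk liver fewer cells of a type and less RNA per cell cannot be told apart.

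Slco1a1, a broad uptake carrier of bile acids and steroid sulfates, varied mainly between single mice. Control mice 1 to 5 had 393.6, 531, 219, 415 and 415 CPM, and CE mice 6 to 10 had 356, 303, 258, 512 and 377 CPM. Sirt2-/- mice 11 to 13 had 360.0, 441 and 386 CPM, but mice 14 and 15 had only 33.4 and 38.8 CPM. In Sirt2-/-/CE the values were 162, 457, 500.4, 461 and 112 CPM in mice 16 to 20. All group ranges overlapped, and the low mice were the ones that stood apart as libraries. The log2 fold change of Sirt2-/- against Control was -0.65 (SE 0.56, adjusted p = 0.639 by edgeR), and with Sirt2-/- 14 and 15 left out it was 0.01. That of Sirt2-/-/CE against Sirt2-/- was 0.43 (SE 0.56, adjusted p = 0.946) and turned to -0.23 without those mice.

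Slco1a4, an uptake carrier of bile acids, cardiac glycosides and other drugs, behaved in the opposite way in 3 mice. In Control its level was 60.5, 60.5, 166, 73.4 and 38.0 CPM, and in CE it was 68.8, 67.2, 44.4, 40.6 and 71.7 CPM. In Sirt2-/- it was 33.4, 43.0, 45.2, 38.0 and 96.5 CPM, and in Sirt2-/-/CE 52.0, 60.05, 52.1, 62.4 and 186 CPM. The highest mouse of each of these 3 groups, Control 3, Sirt2-/- 15 and Sirt2-/-/CE 20, had the lowest or second lowest Slco1a1 of its group. Slco1a1 exceeded Slco1a4 by 3.23-fold to 11.04-fold in FPKM in 16 mice, and the ratio was 1.21 in Control 3, 0.86 in Sirt2-/- 14, 0.362 in Sirt2-/- 15 and 0.542 in Sirt2-/-/CE 20.

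No difference of Slco1a4 between groups passed the threshold. Its log2 fold change was -0.45 for CE against Control (SE 0.40, adjusted p = 0.765 by edgeR), 0.69 for Sirt2-/-/CE against Sirt2-/- (SE 0.40, adjusted p = 0.764) and 1.13 for the interaction (SE 0.57, adjusted p = 0.608). With Control 3 and Sirt2-/-/CE 20 left out these values were 0.01, 0.15 and 0.14. Over the 20 mice, log2 CPM of Slco1a4 related to the male-type minus female-type score with r = -0.80 (permutation p = 0.00023, adjusted p = 0.0033) and Spearman's rho = -0.54 (permutation p = 0.017, adjusted p = 0.094). Without the 2 mice farthest from the median score, again Control 3 and Sirt2-/-/CE 20, r was -0.41, so the relation rested largely on them. In both mice the male-type list was lowest and the female-type list highest, and their part in the level of Slco1a4 was not tested.

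**Figure D2:**
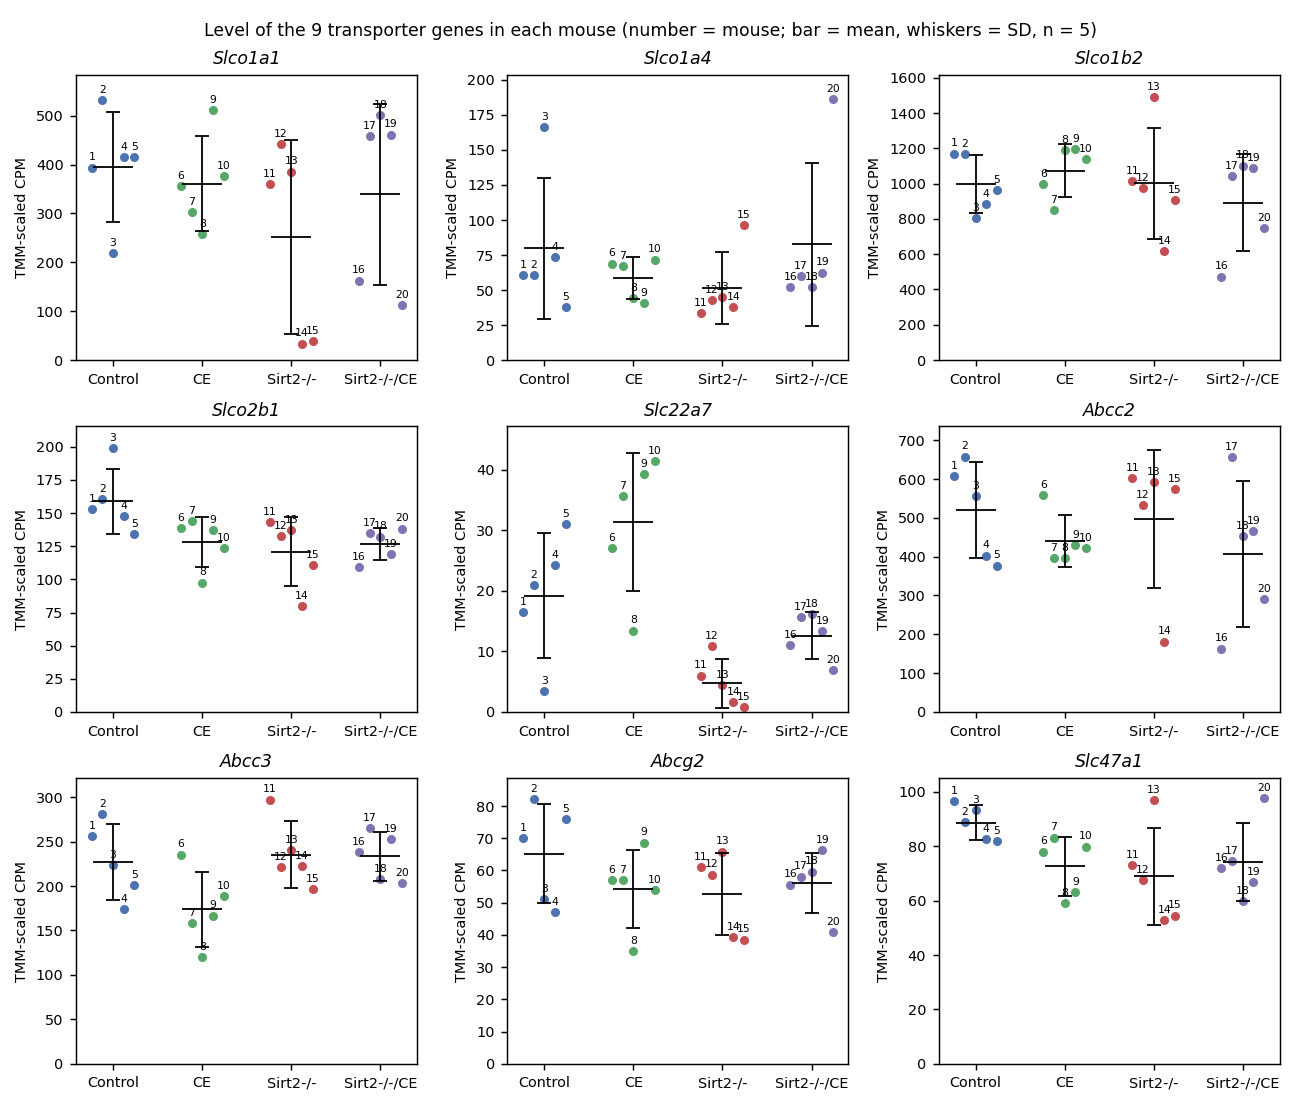
TMM-scaled CPM of the 9 transporters in each of the 20 mice by group, with the mean and SD of the 5 mice. Mice 14 and 15 lay far below the other Sirt2-/- mice for Slco1a1, mice 3 and 20 far above the rest of their groups for Slco1a4, and the Sirt2-/- mice below 4 of 5 Control mice for Slc22a7.

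Slco1b2 and Slco2b1 were steadier. Slco1b2, the mouse counterpart of the human bilirubin carriers of the same family, had 998 ± 166 CPM in Control, 1075 ± 148 in CE, 1001 ± 315 in Sirt2-/- and 892 ± 274 in Sirt2-/-/CE (SD, n = 5 each). Its lowest mice were Sirt2-/-/CE 16 with 474 CPM and Sirt2-/- 14 with 618 CPM, the libraries with the lowest gene length trends, and its log2 fold changes lay between -0.27 and 0.11 in the 4 comparisons of pairs of groups, or between -0.14 and 0.13 without these 2 mice. Slco2b1, a broadly expressed carrier of steroid sulfates and drugs on chromosome 7 from 99657804 to 99711340, had 159 ± 24.4 CPM in Control, 128 ± 18.6 in CE, 121 ± 26.0 in Sirt2-/- and 127 ± 12.1 in Sirt2-/-/CE. Sirt2-/- was lower than Control by 1.32-fold (log2 -0.40, SE 0.15, unadjusted p = 0.0185, adjusted p = 0.223 by edgeR). Without Sirt2-/- 14 and 15 the log2 value was -0.20. Exons of Slco2b1 share 471 bases with Gm15635 on the other strand, which held 0.0174% to 0.219% of the counts of the pair.

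Among the exporters, Abcc2, the pump that moves bilirubin glucuronides and glutathione conjugates into bile, had 520 ± 124 CPM in Control, 441 ± 67.7 in CE, 497 ± 178 in Sirt2-/- and 406 ± 188 in Sirt2-/-/CE. Its values within the knockout groups were uneven: Sirt2-/- 14 had 181 CPM against 532 to 603 in the other 4 mice, and Sirt2-/-/CE 16 had 163 CPM against 290.1 to 657. Abcc2 has 8532 exon bases, the most of the 9 genes, and its log2 CPM related to the gene length trend with r = 0.92 (permutation p = 1e-05, the smallest the permutations can give, adjusted p = 0.00063) and rho = 0.79 (permutation p = 5e-05, adjusted p = 0.0031). Without the 2 farthest mice r was 0.79, and after subtraction of the group means it was 0.94. Abcg2, with 8153 exon bases, related to the trend with r = 0.33 (permutation p = 0.16, adjusted p = 0.32). Slco1b2, with 4929, did so with r = 0.74 (permutation p = 0.00074, adjusted p = 0.0058), or 0.29 without the 2 farthest mice. The levels and the trend share their libraries, and long genes, Abcc2 and Abcg2 among them, define the trend. The part of gene length in these levels was not tested. No comparison of groups passed for Abcc2, with log2 fold changes of -0.29 to -0.07, or of -0.30 to 0.14 without Sirt2-/- 14 and Sirt2-/-/CE 16.

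Abcc3, the pump on the blood side of hepatocytes that returns conjugates to blood, was lowest in CE. Its levels were 256, 281, 223, 174 and 201 CPM in Control, 235, 158, 120.4, 167 and 188 CPM in CE, 297, 221, 240.4, 222 and 196 CPM in Sirt2-/- and 238, 265, 208, 253 and 203 CPM in Sirt2-/-/CE. All 5 Sirt2-/-/CE mice exceeded the CE mean, although the ranges overlapped through CE 6. The log2 fold change was -0.38 for CE against Control (SE 0.17, unadjusted p = 0.0336, adjusted p = 0.423 by edgeR) and 0.42 for Sirt2-/-/CE against CE (SE 0.17, unadjusted p = 0.0205, adjusted p = 0.678). Both comparisons share the CE mice, and neither passed. The endothelial markers had the same signs, with all 8 lower in CE than in Control (median log2 fold change -0.70, 2 of 8 at an unadjusted p under 0.05 by edgeR, beside 10.7% of all genes) and all 8 higher in Sirt2-/-/CE than in CE, as given above. Kupffer cell markers had medians of -0.10 and 0.80. Their part in the level of Abcc3 was not tested.

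Abcg2, which exports sulfates, urate and porphyrins, had 65.2 ± 15.4 CPM in Control, 54.3 ± 12.2 in CE, 52.7 ± 12.8 in Sirt2-/- and 56.1 ± 9.41 in Sirt2-/-/CE. Slc47a1, which exchanges organic cations such as metformin for protons, had 88.7 ± 6.48 CPM in Control, 72.7 ± 10.8 in CE, 69.0 ± 17.9 in Sirt2-/- and 74.2 ± 14.3 in Sirt2-/-/CE. Of the 5 Sirt2-/- mice, 4 were below the Control mean of Slc47a1, and the log2 fold change was -0.36 (SE 0.16, unadjusted p = 0.0377, adjusted p = 0.294 by edgeR). Its log2 value was -0.16 without Sirt2-/- 14 and 15, and -0.14 with the clock score as a covariate.

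Counted together, 0 of the 9 transporters passed an adjusted p of 0.05 by edgeR in any comparison. Among all genes tested the share called was 0.0064% for CE against Control, 0.89% for Sirt2-/- against Control, 0.0% for Sirt2-/-/CE against Sirt2-/-, 0.0128% for Sirt2-/-/CE against CE, 0.186% for the averaged genotype, 0.0% for averaged cold and 0.0% for the interaction. At an unadjusted p under 0.05 by edgeR, the count was 1 of 9 for CE against Control (Abcc3, beside 10.7% of all genes), 3 of 9 for Sirt2-/- against Control (Slco2b1, Slc22a7 and Slc47a1, all lower, beside 14.9%), 1 of 9 for Sirt2-/-/CE against Sirt2-/- (Slc22a7, beside 7.25%) and 2 of 9 for Sirt2-/-/CE against CE (Slc22a7 lower and Abcc3 higher, beside 6.09%). It was 1 of 9 for the averaged genotype (Slc22a7, beside 13.8%), 1 of 9 for averaged cold (Slc22a7, beside 9.48%) and 0 of 9 for the interaction (beside 8.34%). These are counts of few genes, and no test of the list was made. DESeq2 and limma voom each called Slc22a7 alone among the 9 genes, in the comparisons given above.

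The groups overlapped for all 9 transporters in each comparison of a pair of groups, while the share of all genes without overlap was 3.04% for CE against Control, 3.61% for Sirt2-/- against Control, 0.743% for the effect of cold within the knockout and 1.22% for the effect of genotype within the cold. In Sirt2-/- against Control, 7 of the 9 had a negative log2 fold change, with a median of -0.36 beside 0.02 over all genes tested. In CE against Control it was also 7 of 9, with a median of -0.26 beside -0.01. Both comparisons share the Control mice. The median was 0.09 in Sirt2-/-/CE against Sirt2-/- and -0.02 in Sirt2-/-/CE against CE. Without Sirt2-/- 14 and 15 the median was -0.07 in Sirt2-/- against Control, with 5 of 9 negative, and -0.13 in Sirt2-/-/CE against Sirt2-/-.

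**Figure D3:**
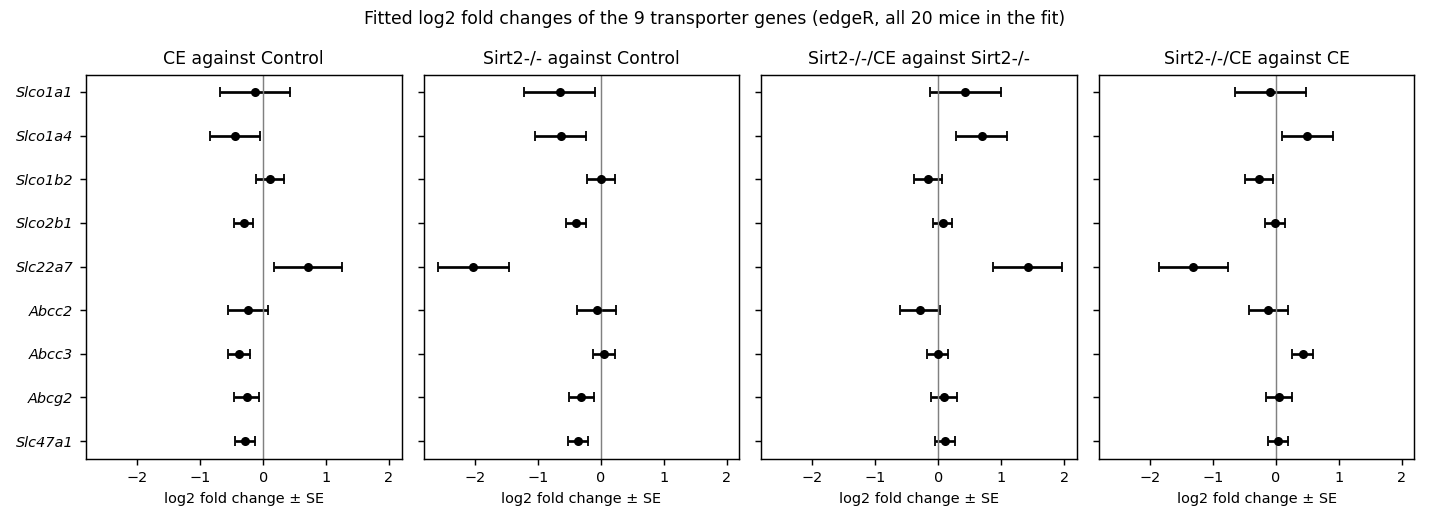
Log2 fold change of each transporter with its standard error in 4 comparisons, from 1 edgeR fit of all 20 mice. Slc22a7 lay farthest from 0 in both comparisons of genotype, at -2.02 and -1.31, and the other transporters lay between -0.65 and 0.69.

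Transporters that moved together across mice were sought over 63 relations, which were the 36 pairs of the 9 genes and their relation to the clock, gene length and male-type minus female-type scores, each over 20 mice of log2 CPM. Slco1a1 related to Abcg2 with r = 0.73 (permutation p = 0.00041, adjusted p = 0.0037) and rho = 0.78 (permutation p = 1e-04, adjusted p = 0.0031). Without Sirt2-/- 14 and 15, its 2 mice farthest from the median, r was 0.64, and from deviations of each mouse from its group mean it was 0.74. Slco2b1 related to Slc47a1 with r = 0.74 (permutation p = 6e-05, adjusted p = 0.0019) and rho = 0.75 (permutation p = 0.00023, adjusted p = 0.0048), with r = 0.66 without the 2 farthest mice and 0.62 within groups.

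Slco1a1 related to its neighbour Slco1b2 with r = 0.61 (permutation p = 0.008, adjusted p = 0.046) and rho = 0.62 (permutation p = 0.0047, adjusted p = 0.05), with r = 0.69 without Sirt2-/- 14 and 15 and 0.68 within groups. With its other neighbour Slco1a4 r was -0.27 (permutation p = 0.25, adjusted p = 0.36) and rho was -0.26 (permutation p = 0.27, adjusted p = 0.46), and r was -0.60 without the same mice.

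A few relations fell when the 2 farthest mice were left out. Slco1a1 related to Slc22a7 with r = 0.79 (permutation p = 0.0003, adjusted p = 0.0033) but rho = 0.52 (permutation p = 0.019, adjusted p = 0.094), and r was 0.44 without Sirt2-/- 14 and 15, which had the lowest levels of both. Slco1b2 related to Abcc2 with r = 0.78 (permutation p = 0.00028, adjusted p = 0.0033) and rho = 0.54 (permutation p = 0.017, adjusted p = 0.094), and r was 0.40 without Sirt2-/- 14 and Sirt2-/-/CE 16. The clock score related to Slc47a1 with r = 0.72 (permutation p = 0.00031, adjusted p = 0.0033) and rho = 0.62 (permutation p = 0.0039, adjusted p = 0.05), with r = 0.53 without the 2 farthest mice. All these points share a library and its depth between the measures related.

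**Figure D4:**
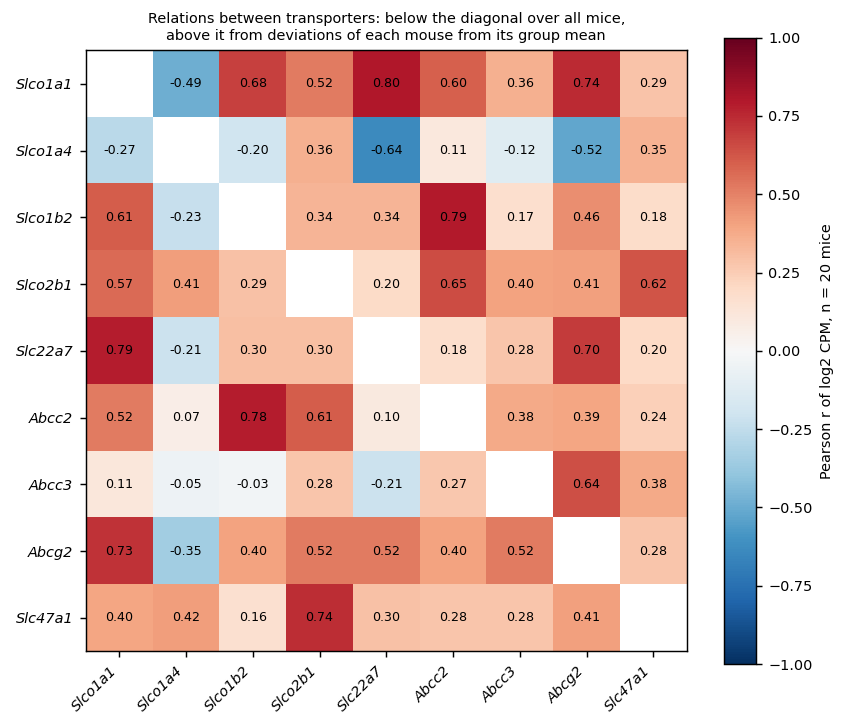
Pearson's r of log2 CPM between the 9 transporters over 20 mice, below the diagonal over all mice and above it from deviations of each mouse from its group mean. Slco1a1 with Slc22a7 (0.79 and 0.80), Slco1b2 with Abcc2 (0.78 and 0.79), Slco2b1 with Slc47a1 (0.74 and 0.62) and Slco1a1 with Abcg2 (0.73 and 0.74) are the darkest pairs over all mice, and Slco1a4 with Slc22a7 within groups is the lowest at -0.64.

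**Figure D5:**
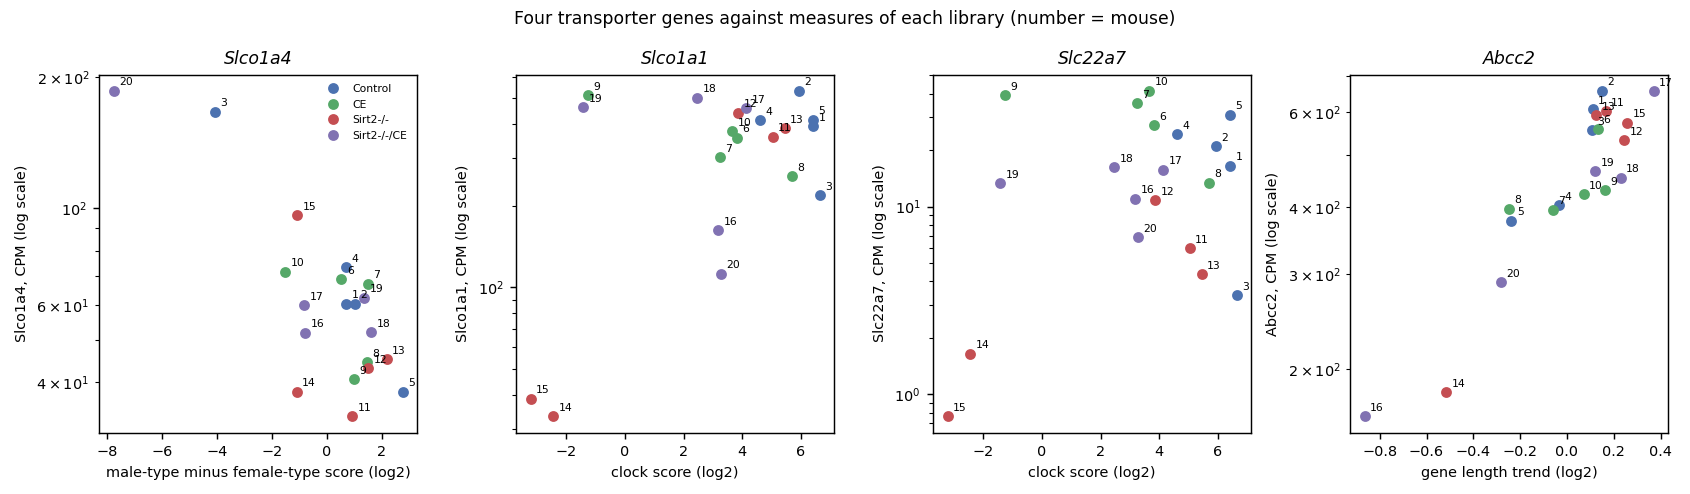
CPM of 4 transporters on a log axis against a measure of each library, with numbers for the mice. Mice 3 and 20 have the lowest male-type minus female-type scores and the highest Slco1a4, mice 14 and 15 the lowest clock scores and the lowest Slco1a1 and Slc22a7, and mice 14 and 16 the lowest gene length trends and the lowest Abcc2.

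In Sirt2-/- against Control the median log2 fold change was 3.25 over Arntl, Npas2 and Clock and -0.97 over the 5 genes of the other arm. Of these 8 genes 0 were called by edgeR, beside 0.89% of all genes, and 3 were at an unadjusted p under 0.05, beside 14.9%. With Sirt2-/- 14 and 15 left out the medians of these arms were 0.79 and -0.25, with 0 of 8 called and 0 of 8 at an unadjusted p under 0.05. In that fit no gene was called, and a smaller share of all genes was at an unadjusted p under 0.05, as given above. Sirt2-/-/CE 19 and CE 9 had clock scores of -1.42 and -1.25, well under their groups, and 461 and 512 CPM of Slco1a1. Their means over the 5 genes of the arm of Per3 were -2.18 and -1.95 in centred log2 CPM. In Sirt2-/- 14 and 15 these means were -4.21 and -3.49. The part of the clock in the level of Slco1a1 was not tested. With the clock score as a covariate the log2 fold change of Slc22a7 in Sirt2-/- against Control was -1.77 (adjusted p = 0.414 by edgeR). The time of day at which each liver was taken is not given in the sources used here, and its part was not tested.

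Of 53 other hepatic transporters, 42 passed the filter, and 0 of them passed an adjusted p of 0.05 by edgeR in any comparison, with 7 of 42 at an unadjusted p under 0.05 in Sirt2-/- against Control, 1 higher and 6 lower, beside 14.9% of all genes. Without Sirt2-/- 14 and 15 this count was 2 of 22 uptake and 1 of 20 efflux transporters. The other tools called some, named here after their values were seen. In CE against Control, DESeq2 called Slc16a10 (beside 1.04% of all genes) and limma voom called 4 of 42, Slc16a10, Atp7b, Slc10a1 and Slc29a1 (beside 3.46%). In Sirt2-/- against Control, limma voom called 3 of 42, Slc22a17, Abcg8 and Abcc6, beside 5.8% of all genes, and for the averaged genotype both tools called Slc10a2. Slc10a2 was also called with limma on FPKM and with the gene length trend as a covariate, and Slc16a10 with the clock score as a covariate. For Sirt2-/- against Control the median log2 fold change was -0.30 over 22 other uptake transporters and 0.05 over 20 other efflux transporters, and -0.12 and 0.07 without Sirt2-/- 14 and 15. Slc10a1, the sodium-dependent bile acid carrier of the sinusoidal membrane, was at 340.1 ± 57.3 FPKM in Control and 350.3 ± 32.2 in Sirt2-/-. Its fitted log2 fold change for Sirt2-/- against Control was -0.10 (SE 0.12, adjusted p = 0.765 by edgeR), opposite in sign to the FPKM means. Its log2 fold change for CE against Control was -0.33 (SE 0.12, adjusted p = 0.322 by edgeR), and -0.42 with limma voom (adjusted p = 0.0311).

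Abcb11, the bile salt export pump, had 67.0 ± 15.1 FPKM in Control and 89.0 ± 46.4 in Sirt2-/-, with a fitted log2 fold change of 0.23 (SE 0.37, adjusted p = 0.825 by edgeR). Abcc4, a pump of the blood side that is scarce in normal liver, lay between 0.0998 and 1.16 FPKM. Its mean was 0.44 FPKM in Control, 0.36 in CE, 0.72 in Sirt2-/- and 0.73 in Sirt2-/-/CE. The log2 fold change of Abcc4 for the averaged genotype was 0.75 (SE 0.31, unadjusted p = 0.0253, adjusted p = 0.288 by edgeR). Slco1a5 and Slco1a6, further members of the same subfamily, did not pass the filter, with at most 1 and 7 counts in a mouse.

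Of 30 regulators known to act on these transporters, each tested as a gene, 0 passed an adjusted p of 0.05 by edgeR in any comparison, and 4 were at an unadjusted p under 0.05 in Sirt2-/- against Control, 2 higher and 2 lower, beside 14.9% of all genes. The log2 fold changes for this comparison were -0.02 for Nr1i3 (the receptor CAR), -0.05 for Nr1i2 (PXR), -0.40 for Nr1h4 (the bile acid receptor FXR, SE 0.18, adjusted p = 0.284), 0.07 for Nfe2l2 (NRF2), -0.0037 for Hnf4a and -0.33 for Ppara. Targets of these receptors were read for comparison. In Sirt2-/- against Control 7 of 10 PPARα targets had higher fitted levels, with 5 higher and 1 lower at an unadjusted p under 0.05 by edgeR. Of the 10, 2 were called, both higher and both fatty acid hydroxylases. These were Cyp4a14 by 7.84-fold (log2 2.97, SE 0.51, adjusted p = 0.0199 by edgeR) and Cyp4a31 by 3.31-fold (log2 1.73, SE 0.36, adjusted p = 0.0352). Of 8 NRF2 targets 7 had higher fitted levels and 1 was called. This was Srxn1, a reductase of oxidized peroxiredoxins, higher by 2.02-fold (log2 1.01, SE 0.23, adjusted p = 0.043). None of these 3 calls was kept without Sirt2-/- 14 and 15, with log2 values of 2.56 (adjusted p = 0.184 by edgeR), 1.90 (adjusted p = 0.199) and 0.52 (adjusted p = 0.446), nor was any with the clock score as a covariate, a fit in which 0 of 15616 genes were called by edgeR and 1135 were at an unadjusted p under 0.05. In that fit the log2 values of Cyp4a14 and Cyp4a31 were 2.85 and 1.85, close to those without the covariate, and that of Srxn1 was 0.47. When each of the 20 mice was left out in turn, Cyp4a14 was called in 18 cases (not without Control 2 or Sirt2-/- 14), Cyp4a31 in 13 (not without Control 1, 2 or 3 or Sirt2-/- 11, 12, 14 or 15) and Srxn1 in 3 (those without Sirt2-/- 11, Sirt2-/- 13 or Sirt2-/-/CE 16). None of 7 CAR and PXR targets and none of 5 AHR targets passed, and among all genes 0.89% were called in this comparison.

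The genes whose pattern over the 20 mice was most like each transporter, among 10591 genes whose mean reached 1 FPKM, are given as a description. They were Parva and Slc22a28 for Slco1a1 (r = 0.93 and 0.92), BC023829, Maob and S100a9 for Slco1a4 (r = 0.82, 0.77 and 0.73), and Smarcc2, Sh3d19 and Cgnl1 for Slco1b2 (r = 0.93, 0.93 and 0.91). Slco2b1 was most like Smad2, Gng12 and Fam20b (r = 0.89, 0.88 and 0.86). Slc22a7 was most like Gm5873, Nsdhl and Tm7sf2 (r = 0.92, 0.90 and 0.89), of which Nsdhl and Tm7sf2 encode enzymes of cholesterol synthesis. For Abcc2 they were Atrx, Herc1 and Tnks2 (r = 0.95, 0.95 and 0.95), for Abcc3 Acaa1b, Pctp and Bmp2 (r = 0.81, 0.80 and 0.79), for Abcg2 Fitm1, Abcd3 and Ces2d-ps (r = 0.88, 0.83 and 0.81), and for Slc47a1 Ak3, Prnp and Hnmt (r = 0.86, 0.85 and 0.85). Within a mouse all genes share the library, its depth and its scaling.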

How the data were processed

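Liver RNA of 20 mice was sequenced by the authors as 1 library per mouse, from poly(A) RNA captured with oligo(dT). The deposited table gives read counts per gene and mouse, without normalization, and FPKM values, which the authors scaled to gene length and depth. The submitters' processing notes name the build mm10, and the aligner, counting tool and strand setting are not given in the sources used here. Of the lines, 9 without a gene were left out. Depth was 35499796 to 53917339 counts per mouse, and with 5 mice per group the spread between mice sets the precision. Mice were grouped from their labels, with no batch given.

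Counts were fitted in edgeR 4.0.16 (TMM scaling, filterByExpr with a minimum count of 10, quasi-likelihood test, two-sided, Benjamini-Hochberg adjustment over 15616 genes, 1 coefficient per group) under R 4.3.3, after the script was tested on simulated data. Standard errors came from the fold change and F. Alternatives were DESeq2 1.42.0, limma 3.58.1 (voom with sample quality weights, and log2(FPKM + 1) where the mean was at least 0.1), other scalings and filters, leaving out each mouse in turn, a fit with the clock score, and, chosen after the data were seen, a fit with the gene length trend and the removal of the 5 libraries that stood apart. Transcripts were compared with BLAST+ 2.17.0 on GENCODE vM21. Permutation tests of relations drew 100000 resamples, two-sided. The transporters and lists were chosen with earlier results of these data known. Besides the 9 transporters, the text names Sirt2, list genes with an adjusted p under 0.05, chosen regulators and transporters, and the 3 most alike genes of each transporter, except for some genes that are not reported here.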

Additional observations from a re-analysis of the deposited data

Results flagged for a closer look

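In 36 groups of 5 values (9 transporters in 4 groups), a mouse was taken as far from the rest when its gap to the nearest other mouse exceeded 0.71 of the range of its group, Dixon's limit for 5 values, which chance alone passes in about 1 of 20 groups. This held for 5 values. Slco1a4 was high in Control 3, at 166 CPM (166.5 before rounding) against 38.0 to 73.4 in the other Control mice, in Sirt2-/- 15, at 96.5 CPM against 33.4 to 45.2, and in Sirt2-/-/CE 20, at 186 CPM (186.1) against 52.0 to 62.4. Abcc2 was high in CE 6, at 558.9 CPM against 395 to 429.6, and low in Sirt2-/- 14, at 181.2 CPM against 532 to 603. Control 3 and Sirt2-/-/CE 20 were also the mice with the lowest male-type minus female-type scores, -4.07 and -7.76, Sirt2-/- 15 had the lowest clock score, and Sirt2-/- 14 had a gene length trend of -0.52. The part of these measures in the levels was not tested.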

How the results depend on the processing

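No transporter passed the adjusted threshold in 190 of 195 recounts over the alternatives, and 1 did, Slc22a7, in the other 5. In Sirt2-/- against Control these were DESeq2 with 1 and the gene length trend as a covariate with 1 (adjusted p = 0.0456, with 3.57% of all genes called), and for the averaged genotype DESeq2 with 1 and limma voom with 1. Leaving out each mouse in turn gave 0 to 1 for the averaged genotype, with 1 only without Control 3, and 0 to 0 elsewhere. Of the other transporters, 0 were called by edgeR as planned, 2 by DESeq2, 8 by limma voom, 1 (Slc10a2) with the gene length trend as a covariate or on FPKM, and 1 (Slc16a10) with the clock score as a covariate. Of 387 recomputed fold changes of the transporters, 382 kept their direction. Slco1a1 turned to 0.006 in Sirt2-/- against Control and to -0.234 in Sirt2-/-/CE against Sirt2-/- with Sirt2-/- 14 and 15 left out, which were both far below the other mice of their group. Slco1a4 in CE against Control turned to 0.008 with Control 3 and Sirt2-/-/CE 20 left out, to 0.008 with all 5 libraries left out, and ranged from -0.62 to 0.01 when each mouse was left out in turn. Scaling by library size only moved the median of all genes by 0.141 in Sirt2-/- against Control, 0.118 for the averaged genotype and 0.092 in Sirt2-/-/CE against CE (log2), and relative to it Slc22a7 remained lower. In Sirt2-/- against Control it called 419 genes, 330 of them higher, beside 139, 60 of them higher, and 0 were called without Sirt2-/- 14 and 15 or with the clock score as a covariate. In Control, Slco1b2 exceeded Slc22a7 by 5.03 on the log2(FPKM + 1) scale, and a pseudocount of 0.1 kept this within the spread. No paired analysis was possible because mouse numbers are not shared between groups.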
